A study of Mus musculus with 7 samples.

Results

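The genes described here, 10 in number, build, cut or bind the extracellular matrix: Timp3, Timp2, Efemp1, Mmp11, Sulf1, Hmcn1, Adamts2, Sparc, Fn1 and Tgfbi. They were chosen by name, with earlier results of these data known. Every probe set that the platform annotation assigns to exactly 1 gene symbol among them was used. This gave 267 probe sets for all 10 genes out of 53644 single-symbol probe sets for 5017 genes. The signals came from 7 Affymetrix arrays of retinal pigment epithelium (RPE) dissected from mouse pups at postnatal day 5. In 3 arrays the RPE was Dicer1-deficient (Dicer1loxP/loxP;Dct-Cre), meaning that both copies of Dicer1 were floxed and that Cre was driven by the promoter of dopachrome tautomerase, which is active in pigment cells, melanocytes as well as RPE. In 4 arrays the RPE was labelled control, with no genotype given. Pups of both groups came from matings of Dicer1 flox/+ mice carrying Dct-Cre with Dicer1 flox/flox mice. By this mating every control carries a floxed allele, and controls may also carry Cre. Dicer1 encodes the nuclease that releases mature microRNAs from their precursors, and the series asks how its loss affects the RNA of the RPE. The labels do not tell whether each array had its own animal. The p-values therefore speak only of the spread between these arrays, part of which may be technical.

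The RPE rests on Bruch's membrane, a sheet of collagens, fibronectin, elastin and heparan sulfate proteoglycans that it shares with the vessels of the choroid. This sheet is remodelled throughout life by metalloproteinases, which cut matrix proteins, and by their tissue inhibitors (TIMPs), which block them. Several human macular diseases begin there: mutations of TIMP3 cause Sorsby fundus dystrophy, a mutation of EFEMP1 causes malattia leventinese (Doyne honeycomb retinal dystrophy), and HMCN1 has been linked to familial age-related macular degeneration. Fibroblasts of the choroid and sclera also make most of these matrix genes.

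Each probe set covers only part of a gene. Below, all genes means the 5017 genes with a single-symbol probe set in the deposited data. A gene is called measured if it had such a probe set. Values are log2 signals, and a log2 fold change is Dicer1-deficient minus control. Genes were compared with limma in 2 ways, on the brightest probe set of each gene and on the mean of all its probe sets, each time with Benjamini-Hochberg adjustment over all 5017 genes and a threshold of 0.05. Controls 1 to 3 correlated with each other at 0.986 to 0.988 across all probe sets and the Dicer1-deficient arrays at 0.980 to 0.984, while control 4 reached only 0.9425 to 0.951 with any of them and had the lowest median signal, 6.05, the others lying between 6.22 and 6.26. Results are therefore also given without control 4. Dicer1 itself differed by -0.05 on its brightest probe set, which is no check of the genotype unless that probe set lies in the deleted part.

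Mmp11 rose in Dicer1-deficient RPE, Sulf1, Fn1 and Timp2 fell on the mean of their probe sets, and the other members did not pass the test. On the brightest probe sets 1 of the 10 genes, Mmp11, passed, where 2.33% of all genes did, and it rose, as 1.42% of all genes did. On the mean of probe sets 4 passed, where 5.86% of all genes did: 1 rose (3.03% of all genes rose) and 3 fell (2.83% of all genes fell). Without control 4 the numbers were 2 of 10 (5.18% of all genes) and 5 of 10 (17.0% of all genes). Dicer1-deficient and control arrays were fully separate for 5 members on the brightest probe set, against 16.3% of all genes, and for 7 on the mean, against 18.9%. Log2 fold changes were negative for 8 members on the brightest probe set (51.9% of all genes) and for 9 on the mean (54.4%). Taken singly, 17 of the 267 probe sets passed, where 1.06% of all probe sets did, and 30 without control 4, where 2.30% did. The median log2 fold change of the members was -0.17 by either summary, against -0.01 over all genes. Because the members were chosen with earlier results of these data known, these shares describe them and are no test of the group. RNA of a gene can be lower because fewer cells of a type were sampled or because each cell held less of it, and in these bulk samples the 2 cannot be told apart.

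**Figure D1:**
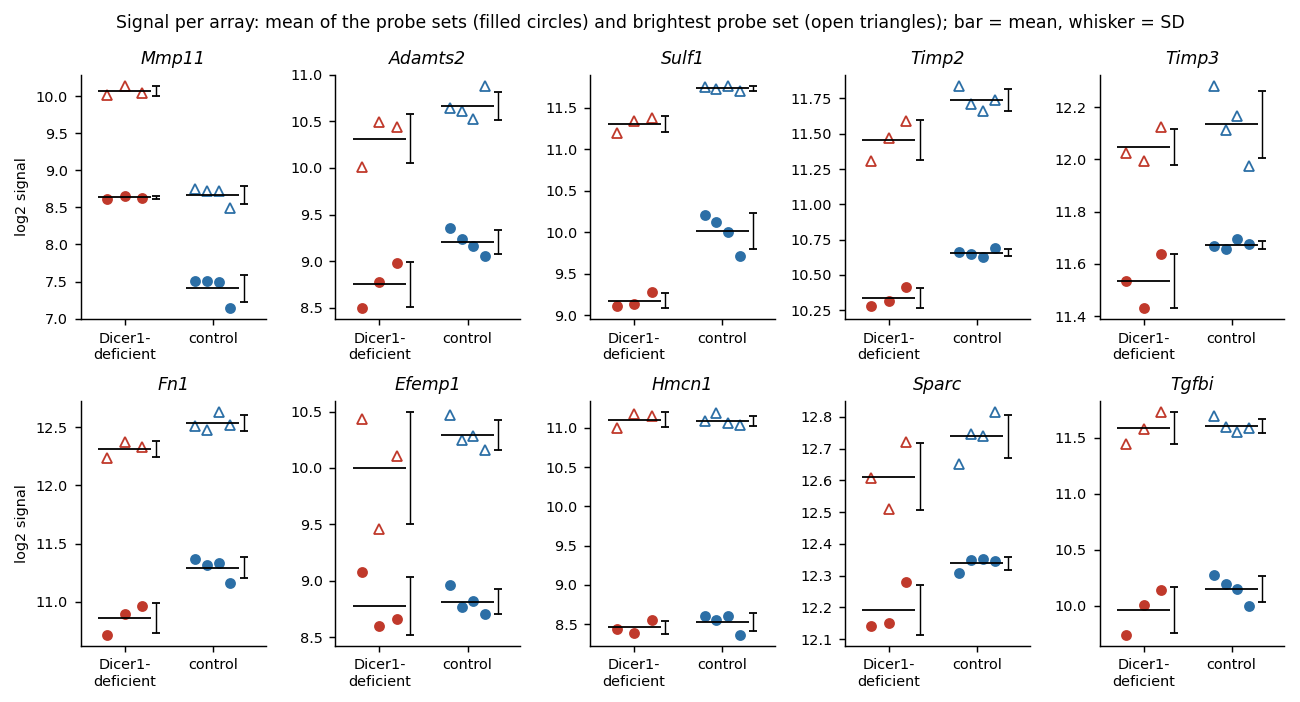
Log2 signal of the 10 genes on each array, with Dicer1-deficient arrays left of control arrays; filled circles are the mean of a gene's probe sets, open triangles its brightest probe set, bars group means and whiskers SDs (n = 3 and 4). Mmp11 is higher on every Dicer1-deficient array, while Sulf1, Fn1, Timp2 and Adamts2 are lower on every Dicer1-deficient array by both summaries.

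For 8 of the 10 genes a RefSeq window around the start of the gene (250 bases before it to 50 after it, GRCm38.p6) was at hand. The windows of Mmp11, the gene that rose, and Timp2, a metalloproteinase inhibitor that fell, are shown because these genes moved in opposite directions. Both lie on the minus strand, Mmp11 at chr10:75932453-75932752 and Timp2 at chr11:118355362-118355661, and the sequences run 5′ to 3′ along the gene with every GC box (GGGCGG, the core bound by Sp1, on either strand) in capitals.
Mmp11: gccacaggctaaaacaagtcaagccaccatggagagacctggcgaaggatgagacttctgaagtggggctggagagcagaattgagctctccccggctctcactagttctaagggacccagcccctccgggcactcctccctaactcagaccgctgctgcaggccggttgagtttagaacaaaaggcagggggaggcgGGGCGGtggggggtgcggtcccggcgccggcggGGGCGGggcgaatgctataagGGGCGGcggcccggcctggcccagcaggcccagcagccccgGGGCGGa
Timp2: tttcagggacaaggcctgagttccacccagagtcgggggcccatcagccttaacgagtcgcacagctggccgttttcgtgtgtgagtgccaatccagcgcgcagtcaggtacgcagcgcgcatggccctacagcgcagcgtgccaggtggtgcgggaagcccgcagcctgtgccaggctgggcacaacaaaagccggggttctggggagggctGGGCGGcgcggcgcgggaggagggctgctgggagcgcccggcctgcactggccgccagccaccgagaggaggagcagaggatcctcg
The Mmp11 window held 4 GC boxes and the Timp2 window 1. The most, 5, were in the window of Adamts2, which was lower in Dicer1-deficient arrays but did not pass. A link between GC boxes and direction was not tested. A GC box was found in 6 of the 8 members' windows and in 35.7% of all 32851 windows. TGANTCA, with any base at N, is a loose form of the AP-1 site through which many metalloproteinase genes are induced. It was in 1 of the 8 (Efemp1, as TGAATCA) and in 7.81% of all windows. TATAAA (13.6% of all windows) and CATGTG, an E-box form bound by the pigment cell factor MITF (14.2%), were in none of the 8. Each motif was searched on both strands, and no match in a member's window overlapped that of another motif.

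Among the enzymes, Mmp11 gave the clearest difference of all members. It encodes stromelysin-3, a metalloproteinase that leaves its cell already activated by furin and is typical of stromal cells near epithelia that are being rebuilt. At its brightest probe set (10370038) the signal was 10.01, 10.14 and 10.05 in Dicer1-deficient arrays and 8.75, 8.72, 8.73 and 8.49 in control arrays. All Dicer1-deficient arrays were above all control arrays, with a gap far wider than the spread within either group. The means were 10.07 ± 0.07 (SD, n = 3) and 8.67 ± 0.12 (SD, n = 4), 2.63-fold higher, a log2 fold change of 1.40 (SE 0.10, limma adjusted p = 0.000646). By its p, Mmp11 ranked 8th of the 5017 genes.

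The rise ran along the whole set of Mmp11 probe sets. All 8 were higher in Dicer1-deficient arrays, by 0.43 to 1.96 on the log2 scale, and 7 had arrays that did not overlap, where 7.35% of all probe sets were higher without overlap. When p was adjusted over all 53644 probe sets, 6 of the 8 passed, where 0.656% of all probe sets rose. Probe set 10370045, which had the smallest difference, read 7.94, 7.98 and 8.08 in Dicer1-deficient arrays and 7.23, 7.55, 7.49 and 8.01 in control arrays, so that control 4 lay among the Dicer1-deficient arrays there. Probe set 10370039 had the largest difference but missed the threshold (limma adjusted p = 0.0723), as control 4 read 5.50 and the other controls 6.96 to 7.06. Without control 4, 7 of the 8 rose, against 1.19% of all probe sets. The mean of the 8 was 8.64 ± 0.02 (SD, n = 3) and 7.41 ± 0.18 (SD, n = 4), a log2 fold change of 1.22 (SE 0.11, limma adjusted p = 0.000175), and 1.13 without control 4. Probe set 10370040, at 5.31 in control arrays, lay under the median signal of 6.22. Detection above background could not be tested from these files, so the fold of such a dim probe set may be too small.

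The genes next to Mmp11 on chromosome 10 did not pass the test. At the brightest probe set Smarcb1, a subunit gene of a chromatin remodeller, differed by -0.06 (limma adjusted p = 0.884) and Chchd10, a mitochondrial protein gene, by 0.61 (limma adjusted p = 0.207).

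Sulf1 fell. It encodes an extracellular sulfatase that removes 6-O-sulfate groups from heparan sulfate and thereby changes which growth factors the matrix holds. On the mean of its 23 probe sets the signal was 9.11, 9.14 and 9.27 in Dicer1-deficient arrays and 10.21, 10.12, 10.003 and 9.72 in control arrays. Every Dicer1-deficient array was below every control array, and control 4 was the control closest to them. The means were 9.17 ± 0.09 (SD, n = 3) and 10.01 ± 0.21 (SD, n = 4), a log2 fold change of -0.84 (SE 0.12, limma adjusted p = 0.0038), and -0.94 without control 4 (limma adjusted p = 0.000191).

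The brightest probe set of Sulf1 (10344905) showed a smaller change and just missed the threshold. It read 11.19, 11.34 and 11.38 in Dicer1-deficient arrays and 11.75, 11.72, 11.77 and 11.70 in control arrays, with no overlap. Its log2 fold change was -0.43 (SE 0.09, limma adjusted p = 0.0578), and without control 4 it passed (-0.44, limma adjusted p = 0.029). Of the 23 probe sets, 22 were lower in Dicer1-deficient arrays and 11 passed in the fit of all probe sets, where 0.406% of all probe sets fell. Without control 4 all 23 were lower and 17 fell, against 1.11% of all probe sets. The lowest fold change was that of probe set 10344912, at 7.45 ± 0.32 (SD, n = 3) in Dicer1-deficient and 8.87 ± 0.17 (SD, n = 4) in control arrays, -1.42 on the log2 scale (limma adjusted p = 0.0148). Probe set 10344900 alone was level, at 8.99 ± 0.02 (SD, n = 3) and 8.97 ± 0.13 (SD, n = 4).

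Adamts2, the procollagen N-proteinase that trims fibrillar collagens before they assemble, did not pass. The mean of its 22 probe sets was 8.50, 8.78 and 8.98 in Dicer1-deficient arrays and 9.35, 9.24, 9.17 and 9.05 in control arrays. The groups did not overlap, and Dicer1-deficient array 3 and control 4 were the nearest pair. The log2 fold change was -0.45 (SE 0.12, limma adjusted p = 0.0688), with a 95% interval of -0.73 to -0.17, and it passed without control 4 (-0.50, limma adjusted p = 0.0233). Of its probe sets 21 of 22 were lower in Dicer1-deficient arrays and none passed singly. The exception, probe set 10375752 (0.32), was dim, with a mean signal of 3.90.

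**Figure D2:**
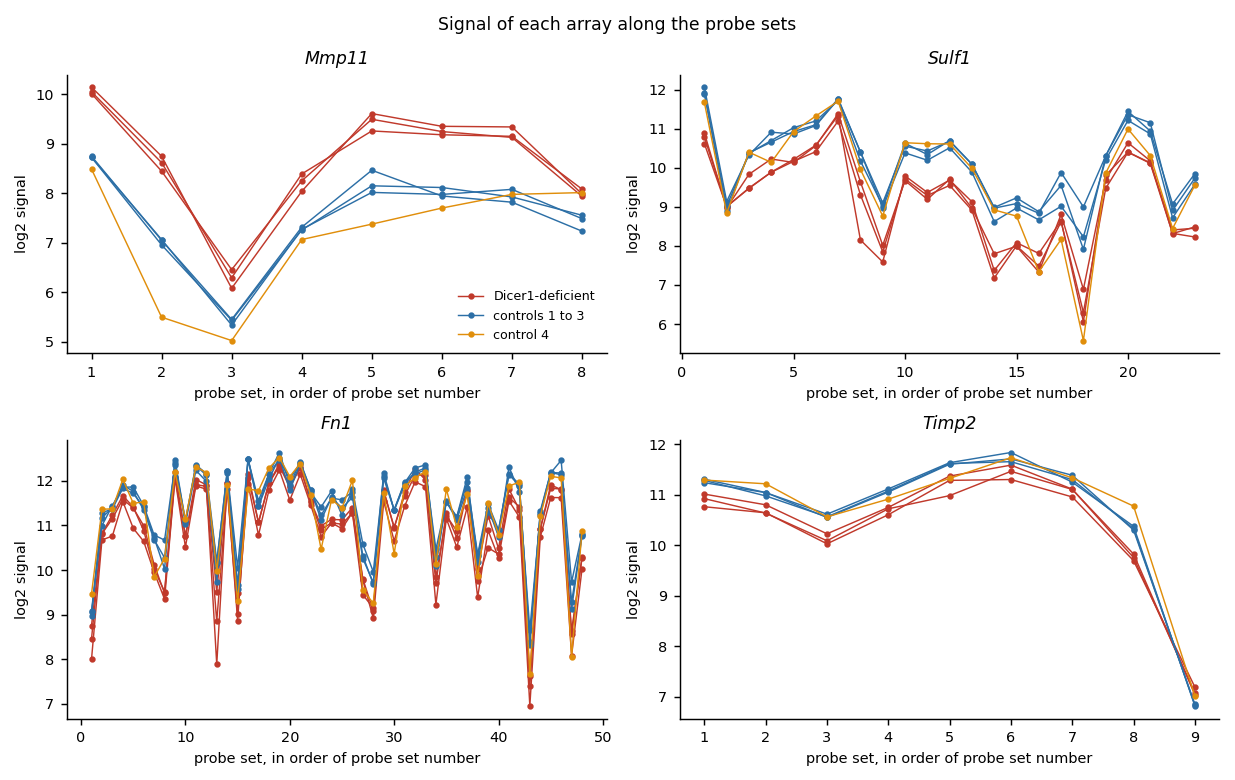
Log2 signal of each array along the probe sets of Mmp11, Sulf1, Fn1 and Timp2, in order of probe set number; red lines are Dicer1-deficient arrays, blue lines controls 1 to 3 and the orange line control 4. The red lines lie above the blue ones along all 8 probe sets of Mmp11 and below them along nearly all of Sulf1, where control 4 drops to the red lines at several probe sets.

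Of the 2 inhibitors, Timp2 fell on the mean of its probe sets and Timp3 did not pass. Timp2 blocks many metalloproteinases and also takes part in the activation of Mmp2 at the cell surface. The mean of its 9 probe sets was 10.28, 10.31 and 10.41 in Dicer1-deficient arrays and 10.66, 10.65, 10.63 and 10.69 in control arrays. The 4 controls were tightly grouped and all above the Dicer1-deficient arrays. The log2 fold change was -0.32 (SE 0.08, limma adjusted p = 0.0382), a fall of 1.25-fold, and -0.31 without control 4 (limma adjusted p = 0.00908). Leaving out any other array ended the call, with limma adjusted p from 0.0849 to 0.168 (without Dicer1-deficient array 3 and array 1), as did centring arrays on their medians (0.0569) and taking the median of the probe sets (0.0663). The brightest probe set of Timp2 gave -0.28 (limma adjusted p = 0.27). Of the 9 probe sets 8 were lower and 7 did so without overlap, where 6.62% of all probe sets were. The ninth, 10393568, was higher, with a difference of 0.22 (limma adjusted p = 0.534). Its arrays did not overlap either, where 7.35% of all probe sets were higher without overlap. It was also the dimmest, with a mean signal of 6.97, above the median signal of 6.22.

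Timp3, the inhibitor that stays bound to the matrix and is the gene of Sorsby fundus dystrophy, did not pass. The mean of its 9 probe sets was 11.54, 11.43 and 11.64 in Dicer1-deficient arrays and 11.67, 11.66, 11.69 and 11.67 in control arrays. The groups were separate but close, with a log2 fold change of -0.14 (SE 0.08, limma adjusted p = 0.454) and a 95% interval of -0.32 to 0.04. It was -0.086 without Dicer1-deficient array 2. All 9 probe sets were lower in Dicer1-deficient arrays, with log2 fold changes from -0.23 to -0.08, and none passed. At the brightest probe set Timp3 differed by -0.09 (limma adjusted p = 0.841), a sign that turned when arrays were quantile-normalized again (0.0066). By its RefSeq coordinates Timp3 lies within Syn3, a synaptic vesicle gene, whose brightest probe set differed by 0.20 (limma adjusted p = 0.716).

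Of the structural and adhesive proteins, Fn1 fell on the mean of its probe sets. Fibronectin is an adhesive glycoprotein of Bruch's membrane through which cells attach to the matrix by integrins. The mean of the 48 probe sets was 10.72, 10.90 and 10.96 in Dicer1-deficient arrays and 11.37, 11.31, 11.33 and 11.17 in control arrays. All Dicer1-deficient arrays were below all controls, and control 4 was the lowest control. The means were 10.86 ± 0.13 (SD, n = 3) and 11.29 ± 0.09 (SD, n = 4), a log2 fold change of -0.44 (SE 0.09, limma adjusted p = 0.0256), or 1.35-fold lower. Without control 4 it was -0.48 (limma adjusted p = 0.00404), and leaving out any other array ended the call, with limma adjusted p from 0.0565 to 0.126 (without Dicer1-deficient array 3 and array 1).

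All 48 Fn1 probe sets were lower in Dicer1-deficient arrays, where 50.3% of all probe sets had a negative log2 fold change, and 35 were so without overlap, where 6.62% of all probe sets were. None passed singly over all probe sets, and without control 4 there were 4 that fell, where 1.11% of all probe sets did. Probe sets of 1 gene read the same RNA on the same arrays, so their shared sign is not a set of independent observations. The size of the difference varied with the signal. Among the 24 brighter probe sets the median log2 fold change was -0.29 and among the 24 dimmer ones -0.52. Across the 48 the log2 fold change had a Spearman correlation of 0.743 with the mean signal. The median was 0.028 over the 2660 genes with 8 or more probe sets, and the share of them reaching 0.743 was not counted. Such a correlation was not particular to Fn1. It was 0.9 for Timp3 (9 probe sets) and 0.664 for Sparc (11), and from -0.084 (Efemp1) to 0.381 (Mmp11) in the other members. The brightest probe set of Fn1 (10355422) gave -0.22 (limma adjusted p = 0.327), near the weak end. The largest difference, -1.26, was at probe set 10355416 (limma adjusted p = 0.191), where Dicer1-deficient arrays spread from 7.89 to 9.51. Which exons of Fn1 these probe sets cover is not given in the sources used here, so the alternatively spliced exons could not be read apart.

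**Figure D3:**
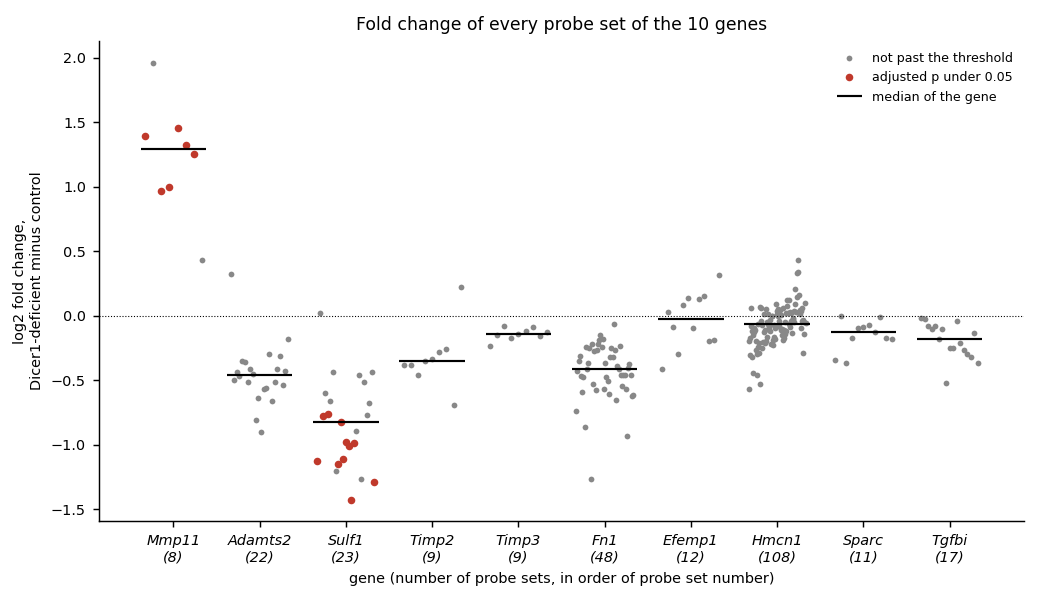
Log2 fold change (Dicer1-deficient minus control) of each of the 267 probe sets, by gene and in order of probe set number; red points passed adjusted p of 0.05 over all probe sets and black bars are medians. The 17 red points belong to Mmp11 (6) and Sulf1 (11), and the points of Fn1, Timp3 and Tgfbi all lie below 0.

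Sparc, a collagen-binding matricellular protein gene that is a described target of miR-29, did not pass. The mean of its 11 probe sets was 12.14, 12.15 and 12.28 in Dicer1-deficient arrays and 12.31, 12.35, 12.35 and 12.35 in control arrays. The groups did not overlap, but the log2 fold change was -0.15 (SE 0.08, limma adjusted p = 0.385), with a 95% interval of -0.32 to 0.02. Of 19 described miR-29 targets listed, 6 were measured, Sparc, Dnmt3a, Lamc1 and 3 collagen genes, and none passed by either summary. On the mean without control 4, 3 of these 6 fell and none rose, where 10.3% of all genes fell.

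Tgfbi encodes a secreted adhesion protein that TGF-beta induces, and its human mutations cause corneal rather than macular dystrophy. The mean of its 17 probe sets was 9.75, 10.01 and 10.14 in Dicer1-deficient arrays and 10.27, 10.20, 10.15 and 9.9997 in control arrays. The groups overlapped, since Dicer1-deficient arrays 2 and 3 lay above control 4. The log2 fold change was -0.19 (SE 0.11, limma adjusted p = 0.472), and -0.02 at the brightest probe set. On the mean it was -0.079 without Dicer1-deficient array 1 and -0.28 without array 3. All 17 probe sets had negative log2 fold changes, which grew in size along the probe set numbers: the median was -0.08 over the first 5 and -0.30 over the last 5, with a Spearman correlation of -0.703 over the 17. A correlation of this size or larger in either direction was seen in 2.85% of genes with 8 or more probe sets. Those genes differ in their number of probe sets, which this share does not allow for. A similar slope was seen between controls: the difference of control 4 from the mean of controls 1 to 3 correlated with the order at -0.635. Without control 4 the correlation of the Tgfbi fold changes with the order was -0.701.

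The fibulin relatives gave no difference past the test. Efemp1, which encodes fibulin-3, a glycoprotein of elastic fibres and Bruch's membrane, had a mean over its 12 probe sets of 9.07, 8.60 and 8.66 in Dicer1-deficient arrays and 8.96, 8.77, 8.82 and 8.71 in control arrays. Dicer1-deficient array 1 was the highest of the 7 and the others the lowest. Efemp1 thus differed by -0.04 on the log2 scale (SE 0.12, limma adjusted p = 0.967), with a 95% interval of -0.31 to 0.24. Its probe sets were split, 6 higher and 6 lower. At the brightest probe set Dicer1-deficient arrays spread from 9.46 to 10.44, and the log2 fold change was -0.29 (SE 0.22, limma adjusted p = 0.672). That value rested on single arrays: it was -0.023 without Dicer1-deficient array 2 and -0.51 without array 1.

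Hmcn1, which encodes hemicentin-1, a very large protein of cell-matrix junctions, did not pass. The mean of its 108 probe sets was 8.44, 8.39 and 8.55 in Dicer1-deficient arrays and 8.60, 8.55, 8.60 and 8.37 in control arrays, which overlapped through control 4. The difference was -0.07 on the log2 scale (SE 0.09, limma adjusted p = 0.837), with a 95% interval of -0.27 to 0.13, and 0.01 at the brightest probe set (limma adjusted p = 0.979). Without control 4 the mean differed by -0.13 (limma adjusted p = 0.202). The arrays then no longer overlapped, but only barely, with Dicer1-deficient array 3 at 8.5492 and control 2 at 8.5496. Of the 108 probe sets 73 were lower in Dicer1-deficient arrays, where 50.3% of all probe sets were, and none passed. Without control 4 there were 91 lower and 1 that fell, where 1.11% of all probe sets fell. With all arrays the log2 fold changes of the 108 ranged from -0.56 to 0.43 and shifted along the probe set numbers. The median was -0.16 over the first 36 and 0.02 over the last 36. The Spearman correlation with the order was 0.545 over the 108, and 0.474 without control 4. Of genes with 8 or more probe sets, 10.3% had one of at least 0.545 in either direction. A gene with few probe sets reaches such a value more easily than one with 108, which this share does not allow for. How the probe set numbers follow the transcript is not given in the sources used here.

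Related genes of the matrix were read by family, against all genes, of which 2.33% passed on the brightest probe sets and 5.86% on the mean (3.03% rose and 2.83% fell). With so few measured genes in each family, 1 or 2 calls do not set a family apart. The measured genes are those found in the deposited data and may not stand for their family. Of 5 metalloproteinase and inhibitor genes measured, 3 of which are described above, Mmp11 was the only call on the brightest probe sets. On the mean Mmp28, the gene of epilysin, fell with Timp2, with a difference of -0.32 (limma adjusted p = 0.043) between dim signals under the array median. Mmp19 gave -0.16 (limma adjusted p = 0.558).

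Of 13 ADAM, ADAMTS and ADAMTS-like genes, 1 fell on the brightest probe sets and 2 on the mean, and none rose. Adam23, an ADAM protein without protease activity that binds integrins, read 7.64 ± 0.07 (SD, n = 3) in Dicer1-deficient arrays and 9.52 ± 0.19 (SD, n = 4) in control arrays at its brightest probe set (-1.88, limma adjusted p = 0.000646). Adamts14, which like Adamts2 can trim procollagen, fell on the mean only (-0.45, limma adjusted p = 0.0244), at 4.97 ± 0.14 (SD, n = 3) against 5.42 ± 0.09 (SD, n = 4), again dim signals.

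Fbln5, the gene of the elastic fibre protein fibulin-5, in which human variants have been linked to macular degeneration, was the 1 of 3 fibulin and hemicentin genes that fell on the mean of probe sets. It read 9.74 ± 0.07 (SD, n = 3) in Dicer1-deficient arrays and 10.21 ± 0.10 (SD, n = 4) in control arrays, a difference of -0.47 (limma adjusted p = 0.0134), against -0.30 at the brightest probe set (limma adjusted p = 0.278). Among 4 other macular disease genes measured of 35 listed, Fbln5 and the retinol dehydrogenase gene Rdh5 (-0.72, limma adjusted p = 0.00612) fell on the mean, and none passed on the brightest probe sets.

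Of 9 matricellular genes, 2 fell on the mean and none passed on the brightest probe sets. Spock1, the gene of the proteoglycan testican-1, gave -1.60 on the mean over 12 probe sets (limma adjusted p = 0.000269) but -0.10 at the brightest (limma adjusted p = 0.882), so its probe sets gave very different answers. Tnn, a tenascin gene, was alike, at -0.75 on the mean of 26 probe sets (limma adjusted p = 0.0305) and -0.17 at the brightest (limma adjusted p = 0.883).

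Besides Sulf1, 3 genes that place or remove sulfate on heparan sulfate were measured, none passing on the brightest probe sets. Hs3st3a1, a 3-O-sulfotransferase gene, rose on the mean (0.41, limma adjusted p = 0.0493), at 6.06 ± 0.14 (SD, n = 3) against 5.66 ± 0.13 (SD, n = 4), which are dim signals. Of 24 listed genes of crosslinking, procollagen processing and the plasmin system only Serpine2 had a single-symbol probe set in the deposited data. It differed by 0.01 on the brightest probe set. Of 3 integrin genes, Itga3, the alpha subunit of a laminin receptor, rose and Itgb8, which releases TGF-beta from its latent form, fell by both summaries. On the mean Itga3 read 8.08 ± 0.08 (SD, n = 3) in Dicer1-deficient arrays and 6.90 ± 0.14 (SD, n = 4) in control arrays (1.19, limma adjusted p = 0.000136), and Itgb8 9.02 ± 0.12 (SD, n = 3) and 10.53 ± 0.15 (SD, n = 4) (-1.51, limma adjusted p = 6.76e-05).

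**Figure D4:**
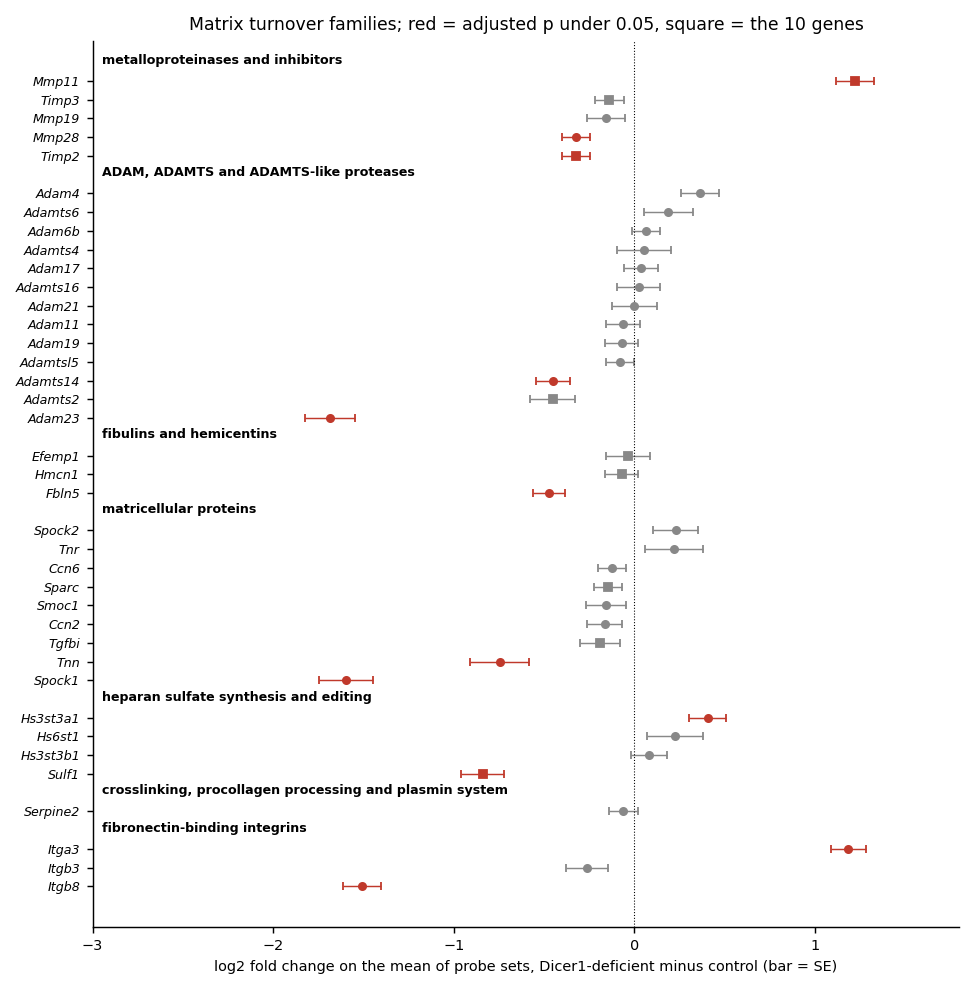
Log2 fold change (Dicer1-deficient minus control) with SE for the measured genes of 7 matrix families on the mean of probe sets; squares are members of the 10 genes and red marks genes past adjusted p of 0.05. Mmp11, Itga3 and Hs3st3a1 are the red points above 0, and Adam23, Spock1, Itgb8 and Sulf1 lie farthest below it.

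Some markers of the cells in the dissected tissue also fell on the mean of probe sets, where 2.83% of all genes fell and 54.4% were negative. The average log2 signal over the 7 measured of 20 RPE markers ran from 9.47 to 9.65 in Dicer1-deficient arrays and from 9.88 to 10.15 in control arrays, on the mean of probe sets, and 3 of them fell (Kcnj13, Rdh5 and Rdh10), with 6 of 7 negative. Over 11 of 13 fibroblast and scleral markers it ran from 9.07 to 9.37 and from 9.54 to 9.69, and 3 fell (Omd, Fmod and Twist1), with 11 of 11 negative. Over 3 of 6 melanocyte and Schwann cell markers it ran from 6.14 to 6.26 and from 6.55 to 6.87, and 2 fell. On the brightest probe sets 1 RPE marker fell (Kcnj13), and none of the fibroblast or melanocyte markers passed. On the mean without control 4, 4 of the 7 RPE, 6 of the 11 fibroblast and 3 of the 3 melanocyte markers fell. Of all genes 10.3% fell in that fit. Ranges overlapped for endothelium and pericytes (2 of 9 markers, 9.21 to 9.53 and 9.19 to 9.60), macrophages (3 of 7, 7.25 to 7.41 and 7.31 to 7.65), photoreceptors (4 of 10, 4.76 to 5.53 and 4.34 to 4.92), lens (6 of 12, 6.13 to 8.02 and 5.16 to 7.03) and eye muscle (5 of 7, 6.43 to 7.88 and 6.66 to 7.31), each given with Dicer1-deficient arrays before control arrays, and no marker of these passed. Without control 4, 1 of them fell on the mean, the macrophage marker Cd68 (-0.33, limma adjusted p = 0.0139). The part of cell content in these results was not tested.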

How the data were processed

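Per the labels, total RNA prepared with a miRNeasy kit was biotinylated and hybridised to Affymetrix arrays. What the authors deposited is a single table of log2 signals, with 65535 probe sets and 7 arrays. Whether it holds every probe set of the array is not known here. The members lie on chromosomes 1, 10, 11 and 13, and many listed genes had no single-symbol probe set in it. Shares of all genes may therefore not hold for the whole genome. The submitters' processing notes name RMA (background correction, quantile normalization and probe summary) and Partek 6.6 without giving their roles. No source used here gives a genome build or a filter, and quantile normalization would remove differences in total RNA. By the platform annotation 53644 probe sets had 1 symbol, 877 several, and 11014 are unnamed here. Outdated symbols (698) were updated through the RefSeq gene table of mouse, none of them a member's. All 10 members were measured, and no filter on dim genes was used.

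Groups came from the labels. Replicate numbers only name arrays and pair none. limma (lmFit and eBayes, two-sided) compared the groups per gene (brightest probe set, or mean of probe sets) and per probe set, with 5 residual degrees of freedom. Intervals are 95%. The members, gene lists and tests were chosen with earlier results of these data known. Genes named are the members, Dicer1, genes beside or around a member, and genes of fixed lists past the threshold by either summary; a few others that complete a count were named after their values were seen. A planned F test for unequal change between probe sets of a gene (limma's diffSplice) made too many false calls when tested on simulated data and was not used. Alternatives were normalization, filters, moderation, array weights, thresholds, the summary of probe sets and leaving out each array. Motifs were searched in RefSeq windows. The number of arrays limits the precision. Software was limma 3.58.1 (R 4.3.3), pandas 2.3.3 and, for figures, matplotlib 3.10.9 (Python 3.11.15).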

Additional observations from a re-analysis of the deposited data

Results flagged for a closer look

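Control 4 lay apart from the other controls for Mmp11. At the brightest probe set it read 8.49, where the other controls ran from 8.72 to 8.75, and on the mean of probe sets it read 7.14, where they ran from 7.49 to 7.51. Without it the rise of Mmp11 was 1.33 and 1.13 on the log2 scale by these summaries, against 1.40 and 1.22 with it. On the mean of probe sets of Sparc, control 1 read 12.31, below the other controls at 12.35. The test for a single far value was run on the controls for 20 results, and about 1 in 20 such groups is picked out by chance. The 3 Dicer1-deficient arrays are too few for it.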

How the results depend on the processing

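The rise of Mmp11 (by both summaries) and the fall of Sulf1 (on the mean of probe sets) kept their direction and passed under every alternative run: 13 for the brightest probe set and 15 for the mean. The log2 fold change of Mmp11 ran from 1.33 to 1.42 and from 1.13 to 1.26, and that of Sulf1 from -0.94 to -0.77. At the brightest probe set Sulf1 passed in 4 of 13. On the mean Timp2 lost its call in 8 of 15 and Fn1 in 6 of 15, and Adamts2 gained one in 3 of 15. Leaving out 1 array at a time gave 33 to 260 genes and 1 to 2 members on the brightest probe sets, 121 to 853 genes and 2 to 5 members on the mean, and 144 to 1236 probe sets of which 4 to 30 were members', each highest value being that without control 4. The main numbers were 117 genes and 1 member, 294 genes and 4 members, and 570 probe sets with 17 of members.

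With array weights the numbers were 385 genes and 2 members, 981 genes, and 1631 probe sets with 34 of members. At adjusted p of 0.01 they were 37 genes, 94 genes with 2 members, and 167 probe sets with 4 of members, and at 0.1 they were 213 genes with 2 members, 449 genes and 1039 probe sets. The filter on dim genes and the variance trend each gave 2 members on the brightest probe sets, and the trend 32 member probe sets. The median of probe sets in place of the mean gave 176 genes. Signs turned only in members near 0. At the brightest probe set Timp3 (0.0066) and Tgfbi (0.045) turned on repeated quantile normalization, Tgfbi without Dicer1-deficient array 1 (0.048) and control 1 (0.0068), and Hmcn1 on median centring (-0.015), with array weights (-0.0071), and without Dicer1-deficient array 2 (-0.021), array 3 (-0.00545) and control 4 (-0.0035). On the mean Efemp1 turned without Dicer1-deficient array 2 (0.054), array 3 (0.022) and control 1 (0.014), and on the median of probe sets (0.044). Leaving out 1 array at a time, these values ran up to 0.07015 for Hmcn1, down to -0.095 for Tgfbi and down to -0.18 for Efemp1. Except where fewer features or arrays entered, the cause was not tested. No paired analysis was possible because the labels give the arrays no shared replicate numbers. The alternatives of the F test within genes were not run. Detection calls were not used here, so signals below the median of all probe sets have no shown distance from background.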
